A study of Cricetulus griseus with 9 samples.

Results

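The comparison of CHO-K1 cells given pre-miR-29b-1 with cells given anti-miR-29a used 6 of the 9 libraries of the series, 3 per group, chosen by the small RNA that their labels name. CHO-K1 is an established epithelial-like line from Chinese hamster ovary. Cells of both groups were grown in charcoal-stripped serum at 5% and were harvested 48 h after lipid transfection. One group received pre-miR-29b-1, a synthetic precursor of miR-29b-1, and the other anti-miR-29a, an inhibitor that blocks miR-29a and, by the submitters' account, miR-29b-1 too. The remaining 3 libraries came from cells given pre-miR-29a and entered the estimate of the spread. The series holds no library of untreated cells or of cells given a control RNA. Falls and rises are therefore differences from anti-miR-29a, and a fall with pre-miR-29b-1 cannot be told apart from a rise with the inhibitor. Levels were given as FPKM (fragments per kilobase of gene model, scaled to library size), and of 15557 genes the 9504 that averaged 1 FPKM or more in the 9 libraries were tested.

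MicroRNAs of the miR-29 family carry the same seed, the short stretch near the 5′ end that pairs with sites in the untranslated regions of target mRNAs, and binding there lowers the mRNA's stability or translation. The family is best known for repressing genes of the extracellular matrix, collagens in particular, and enzymes of DNA methylation. In the RefSeq gene table of the hamster assembly CriGri-PICRH-1.0 the family is listed as Mir29a beside Mir29b and Mir29c beside Mir29b-2, with 0 other listed genes between the members of each pair. The microRNAs have no rows of their own in the deposited table, so the effect of each transfection on its microRNA could not be checked in these values.

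Genes are identified by mouse Ensembl identifiers, because mouse proteins aligned to the hamster assembly CriGri_1.0 served as gene models. The files do not pair these identifiers with names, and 0 of the 15557 were found in the RefSeq table, so genes are described by identifier, level, gene model and, for short lists, by cell cycle phase. Which matrix, methylation or other pathway genes changed was therefore not analysed here, nor could the line's marker genes be checked. Implied depth, read from the steps that single reads leave in low FPKM values, ran from 18500000 to 20780000 reads per library with pre-miR-29b-1 and from 15100000 to 17750000 with anti-miR-29a. Across the tested genes, Pearson's r of log2 values was 0.988 to 0.992 among the anti-miR-29a libraries, 0.991 to 0.995 among the pre-miR-29b-1 libraries, and 0.963 to 0.971 between the groups. Neither separate cultures for the replicates nor a shared transfection day for the groups is stated in the labels. The p-values therefore rest on the spread among these libraries, which may be technical, and group and transfection experiment may not be separable.

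ENSMUSG00000024538 showed the deepest fall among the genes eligible for naming. With anti-miR-29a its level was 243, 237 and 245 FPKM in replicates 1 to 3, and with pre-miR-29b-1 it was 16.5, 17.1 and 17.2 FPKM. The mean with the inhibitor was 14.3 times that with pre-miR-29b-1, and the groups lay far apart beside the SD between replicates (4.24 and 0.41 FPKM, n = 3 each). On the log2(FPKM + 1) scale used for all tests the change was -3.76 (SE 0.044). The adjusted p was 2.02e-11 (two-sided test in limma, Benjamini-Hochberg over all tested genes). The gene model is a short coding sequence of 516 bases in 5 exons on scaffold JH000456, 374214 to 379660, minus strand. Its lowest library still held 163 implied reads with pre-miR-29b-1, against 1846 or more with anti-miR-29a.

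ENSMUSG00000070436 was the second deepest fall and one of the abundant transcripts of the cells. Its level was 3597, 3234 and 3365 FPKM in the anti-miR-29a libraries, and 489, 483 and 497 FPKM in the pre-miR-29b-1 libraries. The mean with the inhibitor was 6.94 times that with pre-miR-29b-1. On the log2 scale it changed by -2.79 (SE 0.056; limma, adjusted p 1.29e-09). This model spans 75201 to 78164 on scaffold JH002044, minus strand, with 1254 coding bases in 4 exons.

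In the other direction, ENSMUSG00000074676 stood at 39.5, 27.1 and 27.3 FPKM with anti-miR-29a and at 144, 135 and 116 FPKM with pre-miR-29b-1. The ratio of means was 4.21, and anti-miR-29a replicate 1 was the highest of its group. Its log2 change came to 2.05 (SE 0.136; limma, adjusted p 1.37e-06). The model is a single coding exon of 990 bases on scaffold JH000311, 1121275 to 1122264, plus strand.

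ENSMUSG00000043461, the highest rise by the same rule, was a weakly expressed gene that reached the 5 FPKM needed for naming only through its pre-miR-29b-1 libraries. It has a single exon of 231 coding bases on scaffold JH000375, 735004 to 735234, plus strand. It was listed at 2.33, 0 and 2.25 FPKM in the anti-miR-29a libraries, which stand for 9, 0 and 9 implied reads. With pre-miR-29b-1 it was listed at 6.75, 9.69 and 9.08 FPKM, or 32, 41 and 42 implied reads. One anti-miR-29a library, replicate 2, was listed at 0. The log2 change of ENSMUSG00000043461 was 2.09 (SE 0.442; limma, adjusted p 0.00272). This size depended on the pseudocount, being 3.36 with 0.1 and 1.06 with 5, and it was 1.52 without anti-miR-29a replicate 2.

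The rule for naming these genes required that the groups did not overlap and that the model was single and shared no exon bases with another gene, so neither is a finding about them. In the pre-miR-29a libraries, which were compared with the same anti-miR-29a libraries, ENSMUSG00000024538 stood at 18.4, 18.2 and 17.96 FPKM and ENSMUSG00000070436 at 539, 516 and 543 FPKM. ENSMUSG00000074676 stood there at 97.4, 95.5 and 85.3 FPKM, between the levels of the other groups. ENSMUSG00000043461 was listed at 5.39, 6.33 and 2.42 FPKM, the lowest of which lay close to the anti-miR-29a values. The log2 changes of pre-miR-29a against anti-miR-29a were -3.66 for ENSMUSG00000024538, -2.67 for ENSMUSG00000070436, 1.56 for ENSMUSG00000074676 and 1.30 for ENSMUSG00000043461. The differences between the pre-miRs were not tested here.

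**Figure D1:**
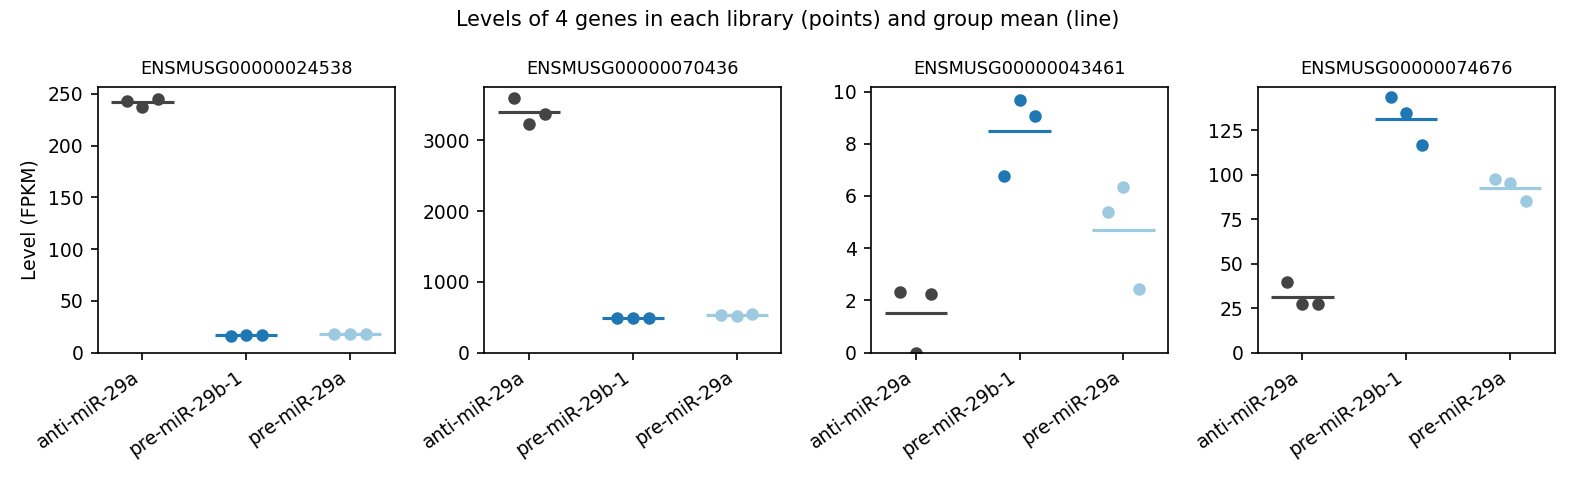
Levels of 4 genes in FPKM (vertical axes, each starting at 0) in the 3 libraries of each group, with points for libraries and a line for the group mean. ENSMUSG00000024538 and ENSMUSG00000070436 are highest in the anti-miR-29a libraries among these 9, and ENSMUSG00000074676 is lowest there, at 27.1 to 39.5 FPKM.

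Beyond the named genes, the 12 eligible genes with the deepest falls and the 12 with the highest rises differed in level and size of change. The 12 falls ranged from -3.76 to -2.07 on the log2 scale and the 12 rises from 1.32 to 2.09. Mean levels over the 6 libraries had a median of 162.9 FPKM for the falls, the lowest being 37.8 FPKM. For the rises the median was 27.6 FPKM and the lowest 5.02 FPKM. Single-exon models made up 0 of the 12 falls and 3 of the 12 rises, beside 4.54% of all tested genes. Their share among the 3614 eligible genes alone was not computed. Among all called genes changed at least 2-fold, they were 10 of 328 lower genes and 7 of 93 higher genes. All these genes were selected by their change, so the values describe them and are not a test.

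Over all genes, 5246 of 9504 (55.2%) passed the threshold of 0.05 on the adjusted p (limma). Of all tested genes, 2795 (29.4%) were lower and 2451 (25.8%) higher with pre-miR-29b-1. Quantile normalization turned this balance, to 2474 lower and 3170 higher. For 67.6% of them all, every library of one group lay above every library of the other. A change of at least 2-fold was seen for 328 lower genes (3.45% of those tested) and 93 higher genes (0.979%). These counts depended on the pseudocount, with 381 lower and 182 higher at 0.1 and 222 lower and 29 higher at 5. The share of falls grew with the size of the change up to the class of 3- to 4-fold. Among called genes that changed by under 1.5-fold, 1815 were lower and 1908 higher. From 1.5- to 2-fold the counts were 652 and 450, and from 2- to 3-fold 261 and 84. Between 3- and 4-fold, 43 genes were lower and 5 higher, and at 4-fold or more 24 were lower and 4 higher.

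The strong falls and the strong rises lay at different levels of expression. Called genes 2- to 3-fold lower had a median level of 42.7 FPKM over the 6 libraries, and those 2- to 3-fold higher 11.6 FPKM. The 24 genes at least 4-fold lower had a median of 62.6 FPKM, and the 4 genes at least 4-fold higher 4.14 FPKM. Weak genes could pass the filter through the groups where they were high. Of 370 genes at 500 FPKM or more, 187 were called, with 12 falls and 2 rises of 2-fold or more. Among all 9504 tested genes 55.2% were called, with falls of that size in 3.45% and rises in 0.979%. The 328 lower genes together held 4.14%, 3.95% and 4.06% of all FPKM in the anti-miR-29a libraries, and 1.47%, 1.51% and 1.51% in the pre-miR-29b-1 libraries. The 93 higher genes held 0.256%, 0.197% and 0.196% with anti-miR-29a, and 0.591%, 0.498% and 0.435% with pre-miR-29b-1. Since the genes were selected by their change, these shares had to move in these directions.

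**Figure D2:**
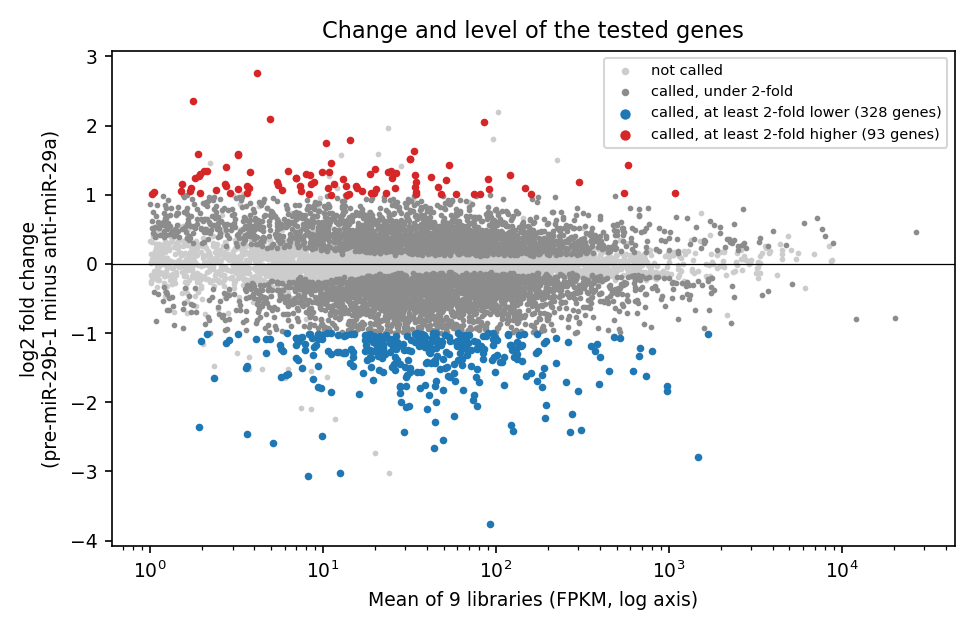
Log2 fold change (pre-miR-29b-1 minus anti-miR-29a, vertical axis) against the mean level over the 9 libraries (FPKM, log axis), 1 point per tested gene. The 328 genes called and at least 2-fold lower spread over most of the range of levels, while most of the 93 genes at least 2-fold higher lie toward the left.

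Divided into 5 bins of about equal size by mean level over the 9 libraries, genes at least 2-fold lower made up 2.95% of the lowest bin, under 11.7 FPKM, and 3.73%, 4.32%, 3.37% and 2.89% of the bins above it. Genes at least 2-fold higher made up 2.52% of the lowest bin, then 0.999%, 0.684%, 0.316% and 0.368%. The share of strong falls thus stayed between 2.89% and 4.32%, whereas that of strong rises was highest among weakly expressed genes. The filter averaged all 9 libraries, so a gene low with anti-miR-29a could enter through its pre-miR libraries. One strong rise of the lowest bin, ENSMUSG00000001827, stood at 0.39, 0.45 and 0.57 FPKM with anti-miR-29a. The part of the filter in the share of strong rises was not tested. With a pseudocount of 0.1, which shrinks changes of low genes less, the weakest genes gave 128 strong rises and 90 strong falls, in place of 48 and 56. The direction of the excess in that bin therefore depended on the pseudocount. Among the most abundant genes, from 117.1 FPKM, the counts were 55 lower and 7 higher with either pseudocount, and quantile normalization gave 48 and 11.

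**Figure D3:**
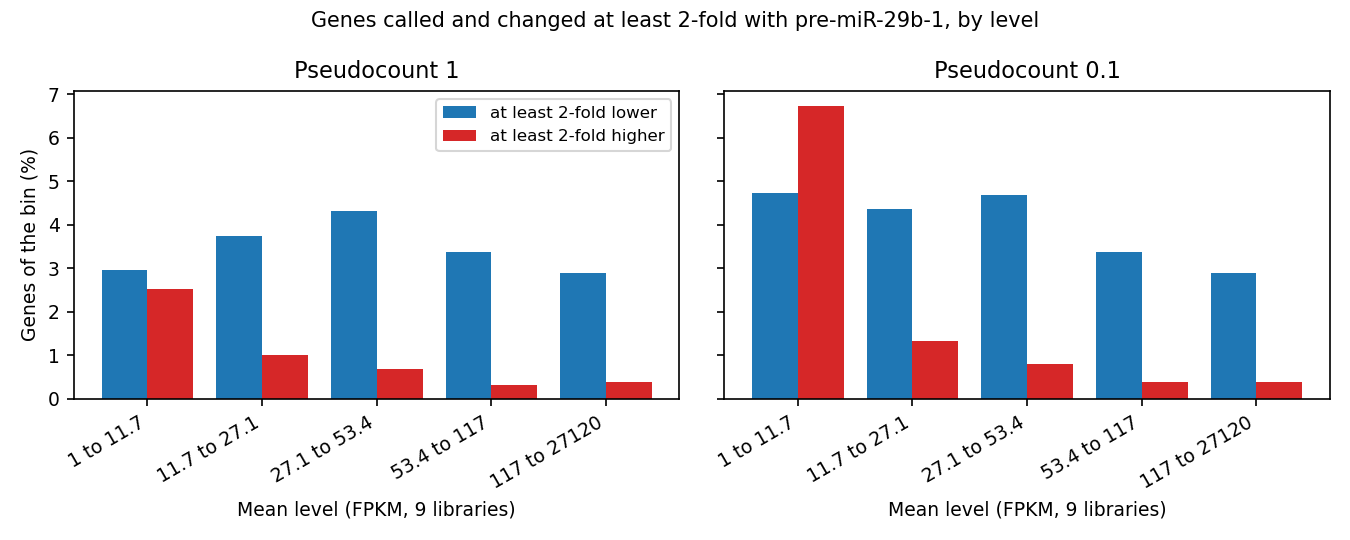
Share of genes (%, vertical axes starting at 0) called and at least 2-fold lower or higher with pre-miR-29b-1, in 5 bins of mean level in FPKM, with a pseudocount of 1 (left) or 0.1 (right). Lower genes outnumber higher ones in each bin except the lowest bin with a pseudocount of 0.1, where 6.73% were higher and 4.73% lower.

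Strong changes made up a smaller share of the genes with the longest coding sequences than of those with the shortest. Genes at least 2-fold lower made up 3.94% of the bin with the shortest models, up to 693 coding bases. Their share was 4.35%, 4.02% and 2.84% in the bins between, and 2.11% in the bin with the longest, from 2373 bases. For genes at least 2-fold higher the shares of the shortest and the longest bin were 1.68% and 0.632%. By exon number, strong falls were found in 2.32% of 431 single-exon genes, 4.18% of genes with 6 to 10 exons and 1.91% of genes with over 20. Strong rises were found in 1.62% of single-exon genes and 0.780% of genes with over 20 exons. The median SE of the log2 change was 0.105 for single-exon genes and 0.067 for genes with over 20 exons, and the part of this difference in precision in the shares was not tested.

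The spread between replicates differed with the type of gene model. Among the 6954 tested genes with 1 model and no shared bases, 0.662% had a range of more than 2-fold within a group, against 2.37% of the 2238 genes with several models. Of the 312 genes with 1 model that shares exon bases with another gene, 16.0% had such a range. Single values of genes that share bases are therefore less certain, and whether the counting split their reads was not tested. Among the genes with 1 model and no shared bases, 251 (3.61%) fell by 2-fold or more and 66 (0.949%) rose by as much, beside 3.45% and 0.979% of all tested genes.

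The scaffolds also gave the neighbours of strongly changed genes. Of 374 tested neighbours of the 251 genes at least 2-fold lower, 10 (2.67%) were also at least 2-fold lower, beside the 3.61% of all genes of this kind. These 10 neighbours form 5 adjacent pairs. Of 105 neighbours of the 66 genes at least 2-fold higher, 2 (1.90%) were also at least 2-fold higher, beside 0.949%. These shares rest on few genes and were not tested. The count was restricted to genes with 1 model and no shared bases.

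Cell cycle phase was the 1 function that could be assigned by identifier. The lists hold genes that are the higher member of published marker pairs for a single phase, learned in mouse embryonic stem cells, and were added after the data had been examined. Of 11 genes for G1, the phase before DNA replication, 9 were called, 6 lower and 3 higher with pre-miR-29b-1, and the median log2 change was -0.31. For S phase, in which DNA is replicated, 29 of 37 genes were tested and 17 called, 13 lower and 4 higher, with a median of -0.16. For G2M, the phases of preparation for division and of mitosis, 23 of 30 genes were tested and 16 called, 9 higher and 7 lower, with a median of 0.14. The share of called members, 81.8%, 58.6% and 69.6%, stands beside 55.2% of all tested genes, whose median change was -0.0057.

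Each list held changes in both directions. The G1 genes ranged from -0.96 to 0.48, the S genes from -1.25 to 0.44 and the G2M genes from -0.93 to 0.70 on the log2 scale. Called changes of 1.5-fold or more were found in 4 of 11 G1 genes (36.4%), 1 of 29 S genes (3.45%) and 4 of 23 G2M genes (17.4%), beside 16.0% of all tested genes. Only 1 gene of the 3 lists, in the S list, passed 2-fold. As a mean of log2(FPKM + 1) over its genes, the S list stood at 5.65 to 5.67 in the anti-miR-29a libraries and at 5.49 to 5.51 in the pre-miR-29b-1 libraries. The G1 list stood at 5.75 to 5.84 and 5.59 to 5.65, also without overlap. Among all tested genes taken singly, 67.6% had no overlap either. A mean over many genes is a different measure from a single gene, and means of other gene sets were not computed. Whether the lack of overlap is particular to the lists was therefore not tested. The G2M list overlapped, at 5.36 to 5.46 and 5.38 to 5.52. In these bulk libraries a shift in the share of cells in a phase and a change in RNA per cell cannot be told apart.

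**Figure D4:**
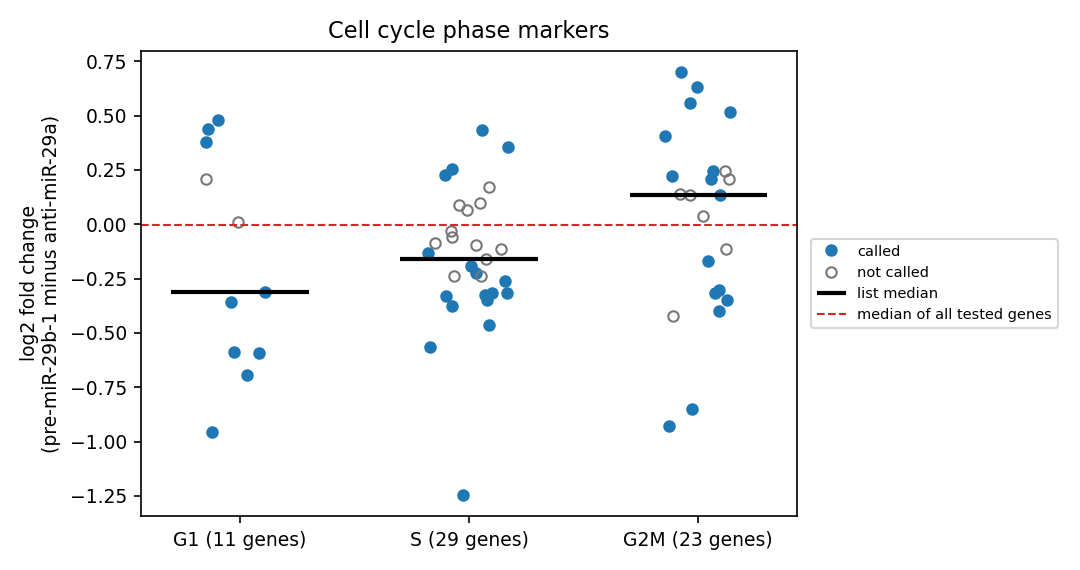
Log2 fold change (pre-miR-29b-1 minus anti-miR-29a) of the tested genes of 3 cell cycle lists, with filled points for called genes, open points for others, a black line for the list median and a dashed line for the median of all tested genes. The medians are -0.31 for G1, -0.16 for S and 0.14 for G2M, and each list holds genes on both sides of 0.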

How the data were processed

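RNA was sequenced from CHO-K1 cells in 9 libraries, 3 for each of pre-miR-29b-1, anti-miR-29a and pre-miR-29a. Per the labels' protocols, 2 µg of total RNA per sample went into stranded poly(A) libraries for single-end reading. The authors deposited FPKM per gene and library. Per the submitters' processing notes, FastQC, TopHat2 2.0.13 (alignment) and Cuffnorm (quantification) were used. For library scaling, strand setting and filters, nothing is given in the sources used here. Exon starts and ends were taken from the deposited annotation. Per the file headers, it holds mouse proteins of an Ensembl release aligned to CriGri_1.0. Of these models, 99.87% had a length divisible by 3, so lengths are coding lengths and exclude untranslated regions.

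Depth was implied from long genes (3000 coding bases or more, 1 model), in which at least 99.1% of low values were within 0.2 reads of a whole number. It is in the unit Cuffnorm divided by, so it may differ from the reads sequenced.

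Values of log2(FPKM + 1) from all 9 libraries were fitted together in limma 3.58.1 (R 4.3.3), with a mean-variance trend. The p-values were adjusted by Benjamini-Hochberg over the 9504 genes averaging 1 FPKM or more, at a threshold of 0.05. The pseudocount of 1 understates changes of low genes. The test was tested on simulated data. Groups, tests and lists were chosen with earlier results of these data known. Genes to name were the 2 with the deepest fall and the 2 with the highest rise among called genes averaging 5 FPKM or more in the 6 libraries, no overlap between groups, 1 model and no shared bases, the version of the rule for identifiers without names. The 50 lists written by gene symbol could not be matched and gave no values. The cell cycle lists come from marker pairs distributed with the scran package and were used as identifiers only. Alternatives changed the pseudocount, filter, scaling, weights, moderation, libraries in the fit, replicate block and gene models, and left out each of the 6 libraries in turn.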

Additional observations from a re-analysis of the deposited data

How the results depend on the processing

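The number of called genes, 5246, stayed within 1.5 times under each of the 18 alternatives, at 3987 to 6507, the lowest from the 6954 genes with unshared single models, and at 4502 to 4792 with 1 library left out. Of the genes changed 2-fold or more, 77.9% were lower. This was 67.7% with a pseudocount of 0.1 and 88.4% with 5, 82.8% with a filter at 5 FPKM and 74.4% with quantile normalization, and 74.3% to 80.3% with 1 library left out. A larger pseudocount or filter weighs low genes less by construction, and for quantile normalization the cause was not tested. The named genes kept their direction and stayed past the threshold in every alternative that tested them, with ENSMUSG00000024538 between -3.83 and -3.49, ENSMUSG00000070436 between -2.83 and -2.75, ENSMUSG00000074676 between 1.93 and 2.23 and ENSMUSG00000043461 between 1.06 and 3.36. The filter at 5 FPKM left out ENSMUSG00000043461. Because the named genes were chosen by their change and lack of overlap in these libraries, their direction and calls were largely fixed beforehand. The list medians kept their sign, at -0.35 to -0.18 for G1, -0.18 to -0.098 for S and 0.12 to 0.23 for G2M. Same-numbered libraries of the groups deviated together with r of 0.086 to 0.29, and differently numbered ones with r of -0.28 to 0.091. Of 6 libraries, 5 correlated best with their own number. The main fit did not take the numbers as pairs, so a spread shared by same-numbered libraries may remain in it. With the replicate block 5552 genes were called. Precision was poorest in the lowest bin of levels, where the median SE of the log2 change was 0.119, against 0.067 in the highest bin.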
